A study of Caenorhabditis elegans with 12 samples.

Results

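The 35 features described here are minor 5p arms: strands from the 5' side of a miRNA hairpin that were counted less often than the 3p strand of the same hairpin. They were chosen by their counts, in the deposited table, among 152 precursors that have both a 5p and a 3p row. The arm with the lower mean count over the 12 libraries was taken as minor, which left 96 precursors with a lower 5p arm, and 54 of these 5p arms had at least 60 counts summed over all libraries. A list of 24 precursors, fixed by name, was then left out. Of the 54 arms it removed 19, so the 35 are not all of the minor 5p arms. The table holds 471 features in all, 370 of them with a miRBase name. The choice of members used their counts over all libraries, so that each 5p arm lies below its 3p arm on average is how the members were picked and not a finding.

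The libraries came from whole Caenorhabditis elegans, a nematode, collected as L4 larvae after growth at 20 °C on the bacterial strain OP50. There were 4 genotypes with 3 libraries each, described in the labels as biological replicates. They were wild type (N2), mbl-1(tm1563), and a pair of lines titled mbl-1(syb4318) and mbl-1(syb4345). Per the series' design, one of these lines is restricted to a short MBL-1 isoform and the other to a long one. MBL-1 is the Muscleblind of the worm, an RNA-binding protein known for its part in alternative splicing. The count columns of the isoform lines carry codes that abbreviate to ME and SH, and no label ties a code to an allele or to an isoform length. The codes are therefore used as the lines' names here, and which line makes the short isoform is not stated. The columns taken as tm1563 carry the gene's name with no line code, so that match is an inference. Small RNA counts do not measure mbl-1 mRNA, and the genotype labels could not be checked with it.

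A miRNA is cut from a hairpin precursor as a duplex of a 5p and a 3p strand. In most duplexes one strand is loaded into an Argonaute protein, which in the worm is mainly ALG-1 or ALG-2, and guides it to target mRNAs. The other strand, formerly called the star strand, is usually degraded soon after. Both strands of a hairpin arise from the same transcript. What set the 5p to 3p ratios in these libraries was not tested.

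Library totals lay between 6946205 and 12053039 counts. The larval timing miRNA let-7-5p stood between 5576 and 7347 CPM (counts scaled to a common library size, with TMM, the trimmed mean of M values, as normalization), and the muscle miRNA miR-1-3p between 125350 and 282810 CPM. The neuronal miR-124-3p stood between 0.9754 and 7.17 CPM, so markers of several tissues were present, as the label of whole animals has it. Both wild-type library 1 and ME library 1 stood apart from the other libraries of their groups. In wild-type library 1 the TMM factor was 0.788, 326 features had a count, and the member 5p arms held 0.268% of all counts, against 0.524% and 0.599% in the other wild-type libraries. ME library 1 differed from ME libraries 2 and 3 by a chi-square per degree of freedom of 1831 and 2881 over all features, against 459 between those 2. The detection floor was taken as 3 counts, which is between 0.244 and 0.450 CPM depending on the library and covers counting error only.

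The member 5p arms covered more than 3 orders of magnitude, and 1 arm held most of their counts. Mean levels over the 12 libraries ran from 0.606 CPM for miR-791-5p to 2796 CPM for miR-77-5p, with a median of 7.59 CPM. The median of their 3p partners was 271 CPM. There were 16 member 5p arms above 10 CPM, 14 between 1 and 10 CPM and 5 below 1 CPM. In each of the 12 libraries 30 of the 35 reached the floor of 3 counts. The other 5, miR-1822-5p, miR-232-5p, miR-5594-5p, miR-791-5p and miR-87-5p, fell under it in at least 1 library, and miR-1822-5p had 0 counts in SH library 2.

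**Figure D1:**
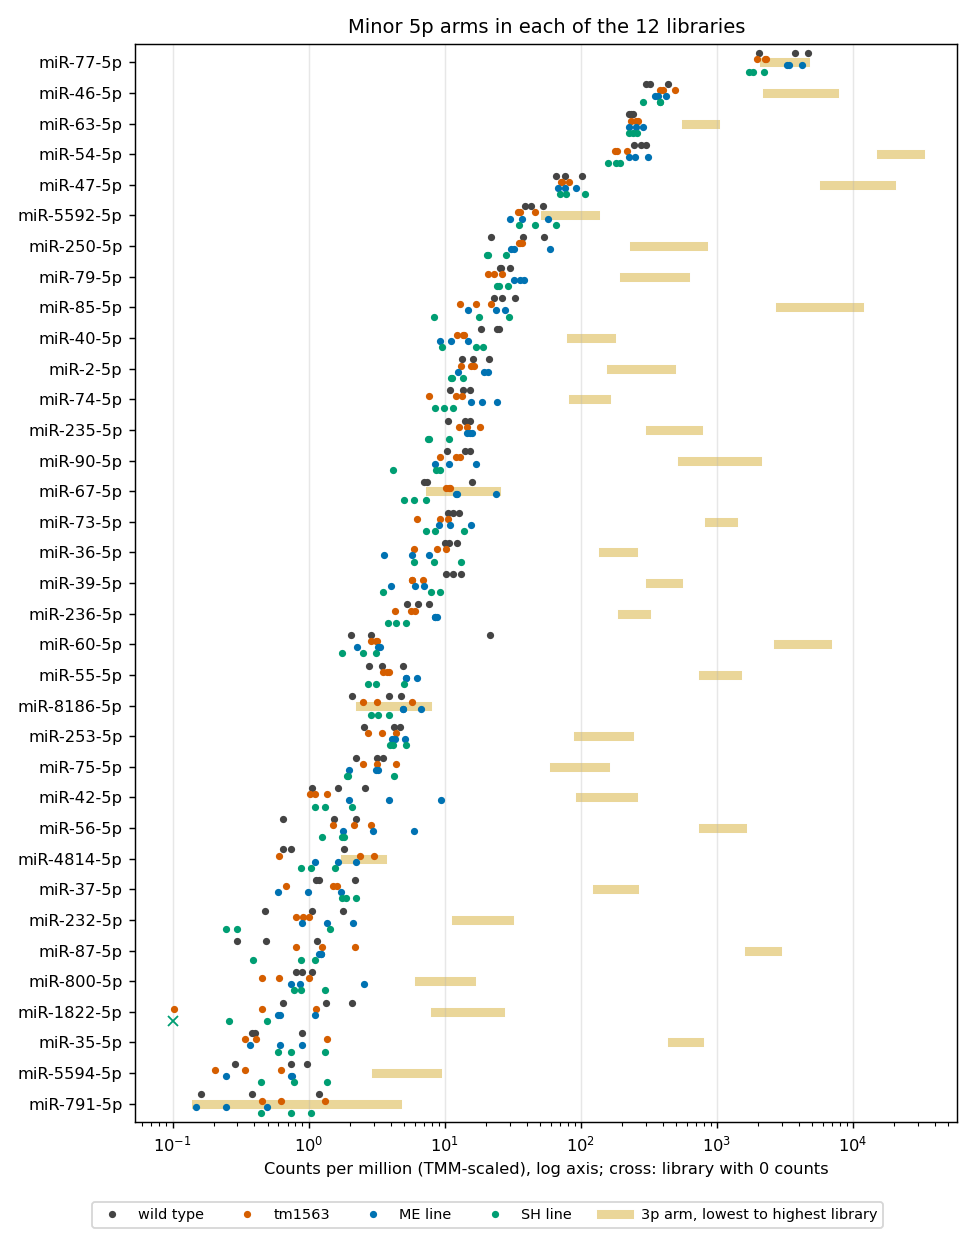
The level of each of the 35 minor 5p arms in the 12 libraries (points, CPM on a log axis, coloured by genotype) with the range of its 3p partner over the 12 libraries (bar). miR-77-5p lies at 1716 CPM or more in every library and reaches the range of its 3p arm, while the bar of most other precursors lies well to the right of the points.

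The most abundant member, miR-77-5p, stood at 2031, 3714 and 4700 CPM in wild type and at 2258, 2273 and 1971 CPM in tm1563. In the ME line it stood at 3271, 3364 and 4205 CPM, and in the SH line at 1846, 2208 and 1716 CPM. No SH library reached the lowest ME library, and the wild-type libraries overlapped both lines, with wild-type library 1 inside the SH range. Because of this arm the share of all counts held by the 35 members followed miR-77-5p: it was 0.464% ± 0.173 (SD, n = 3) in wild type, 0.347% ± 0.0328 in tm1563, 0.486% ± 0.0439 in the ME line and 0.308% ± 0.0133 in the SH line. Without miR-77-5p the other members held 0.118%, 0.124%, 0.127% and 0.112%, in the same order of groups.

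The next members by level were miR-46-5p at a mean of 376 CPM, miR-63-5p at 246 CPM, miR-54-5p at 227 CPM, miR-47-5p at 80.3 CPM and miR-5592-5p at 43.4 CPM. The 3p arms of miR-46 and miR-47 share a seed, and miR-63 belongs by seed with the miR-64 group. miR-63-5p varied least: its lowest library was at 227 CPM and its highest at 285 CPM, and all 4 genotypes overlapped. miR-47-5p ran from 66.1 to 107 CPM, again with all genotypes overlapping. miR-46-5p ran from 284 to 488 CPM, and its highest SH library (383 CPM) lay just below its lowest tm1563 library (384 CPM). At the other end miR-1822-5p, miR-35-5p, miR-5594-5p and miR-791-5p had means of 0.738, 0.696, 0.627 and 0.606 CPM, near the detection floor. The 3p arm of miR-791 is known from carbon dioxide sensing neurons.

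How far the 5p arm lay below the 3p arm differed widely among precursors. The 5p arm took a median of 3.76% of a precursor's counts; it took under 5% in 19 precursors, under 10% in 26 and over 30% in 5. The lowest shares were those of miR-87 (0.0454%), miR-60 (0.0857%), miR-35 (0.110%) and miR-56 (0.194%). The 3p arm of miR-60 is known from the intestine, where it acts in the response to oxidative stress. miR-60-5p stood at 21.5 CPM in wild-type library 1 and between 1.74 and 3.35 CPM in the other 11 libraries, so its wild-type mean of 8.81 ± 11.02 CPM rests on that library.

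In some precursors the arms were close to equal. The highest 5p shares were 46.6% for miR-8186, 46.3% for miR-77, 43.9% for miR-67 and 36.4% for miR-4814, and the choice of the minor arm is least firm there. The 5p arm was counted above the 3p arm in 4 libraries for miR-77, in 3 each for miR-67, miR-4814 and miR-791 and in 1 for miR-8186. The other 30 members lay below their 3p arm in all 12 libraries. Just past the dividing line, miR-86 (57.5% 5p) and miR-4813 (60.2% 5p) have a lower 3p arm and are no members. At the threshold of 60 summed counts, miR-791-5p (60), miR-5594-5p (63) and miR-35-5p (67) were the members just inside, and miR-8196a-5p (49), miR-8196b-5p (49), miR-392-5p (33) and miR-38-5p (28) were just outside.

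By the Ensembl annotation of WBcel235, the same build as named in the submitters' processing notes, 33 of the 35 members matched 1 miRNA gene. Of these precursors 8 lie in an intron of a protein-coding gene on the same strand, 9 in an intron of a gene on the opposite strand and 16 in no protein-coding gene. There were 12 with another miRNA gene within 2000 bp on the same strand. The mir-35 to mir-41 cluster on chromosome II, inside an intron of Y62F5A.9 on the opposite strand, contributes miR-35, miR-36, miR-37, miR-39 and miR-40. The mir-54, mir-55 and mir-56 cluster on chromosome X, opposite to F09A5.3, contributes all 3 of its miRNAs. The annotated 5p strands were 22 to 25 nt long with a median of 23 nt, and the 3p strands 20 to 24 nt with a median of 22 nt. The 5p strand was the longer in 15 precursors, the 3p strand in 7, and 11 had equal lengths. miR-5592 and miR-8186 are each annotated as 2 copies on opposite strands of 1 site. The counts do not separate the copies, and which copy gave a read was not tested.

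Differences between genotypes were tested for 29 of the 35 member 5p arms, those that passed edgeR's filter on low counts. The other 6, miR-87-5p, miR-800-5p, miR-1822-5p, miR-35-5p, miR-5594-5p and miR-791-5p, were too low and their levels are given only as descriptions. All 35 partner 3p arms passed. An arm is said to rise or fall where edgeR's quasi-likelihood test gave an adjusted p under 0.05 over all 250 features tested in a comparison. The 5p to 3p ratio was tested in the same way over 80 precursors. The comparisons with wild type share the wild-type libraries and are given side by side.

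The ME and SH lines differ in the MBL-1 isoform they make. Higher in the ME line were the 5p arms of miR-77, miR-54, miR-74, miR-235, miR-67, miR-236 and miR-42, by 1.47-fold to 3.36-fold, and no member 5p arm was lower. Thus 7 of the 29 tested members were called, all higher in the ME line; over all features 14.4% were called, 10.8% as higher. None of the 35 partner 3p arms was called in this comparison by edgeR. At an unadjusted p under 0.05 in edgeR were 3 of them and 66 of the 250 features tested. DESeq2 called 2 of the partner arms as lower, and 8.40% of all features as lower. In whole animals, fewer cells that make a miRNA and less of it per cell cannot be told apart.

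miR-77-5p, with the library values given above, was higher in the ME line by 0.91 on the log2 scale (SE 0.24, edgeR adjusted p = 0.0178). miR-77-3p stood at 2208, 3514 and 3854 CPM in the ME line and at 3589, 4405 and 3144 CPM in the SH line, which overlap. The miR-77-5p call was lost without ME library 3 (0.66), SH library 1 (0.79) or SH library 3 (0.84), with the same sign. The gene, mir-77, lies on the plus strand at chrII:12519268-12519367 and in no protein-coding gene.

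The worm's miR-67 is widely used in mammalian cells as a control miRNA without a target. The 5p arm of miR-67 stood at 23.7, 12.004 and 12.3 CPM in the ME line and at 4.98, 5.91 and 7.32 CPM in the SH line. Wild type lay at 15.8, 6.98 and 7.40 CPM and tm1563 at 10.7, 10.1 and 10.97 CPM, between the isoform lines for most libraries. The difference between the isoform lines was 1.40 (SE 0.34, edgeR adjusted p = 0.0125); without ME library 1 it was 0.95 and without SH library 1 it was 1.14, and in either case no longer called. The precursor lies at chrIII:5931349-5931447 on the minus strand, in an intron of zmp-1 on the same strand.

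miR-42-5p, from a precursor of the mir-35 family, showed the largest fold of the called members and rested on 1 library. Its ME libraries stood at 9.44, 1.98 and 3.90 CPM and its SH libraries at 1.12, 1.33 and 2.09 CPM. ME library 2 overlapped the SH libraries. The log2 difference was 1.75 (SE 0.52, edgeR adjusted p = 0.0309) and fell to 0.88 without ME library 1. The call was lost there and also without ME library 3 (1.74), SH library 1 (1.42) or SH library 2 (1.67). miR-42-3p was at 0.59 (edgeR adjusted p = 0.186), with ME libraries wholly above the SH libraries. The miR-42 ratio was at 0.96 and not called (edgeR adjusted p = 0.207).

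miR-74-5p, miR-235-5p and miR-236-5p each had ME libraries wholly above the SH libraries. miR-74 belongs with miR-72 and miR-73. The miR-74-5p values were 18.9, 15.5 and 24.1 CPM in the ME line against 11.6, 9.89 and 8.50 CPM in the SH line. miR-235, the worm's relative of miR-92, is known to hold blast cells quiescent in starved first-stage larvae. Its 5p arm stood at 15.4, 14.6 and 15.7 CPM against 7.60, 7.53 and 10.7 CPM. miR-236 is the worm's relative of the miR-8 and miR-200 family, and its 5p arm stood at 8.44, 8.79 and 8.54 CPM against 4.36, 3.84 and 5.23 CPM. The ME values of miR-235-5p and miR-236-5p were the most even of these. Wild-type means of miR-74-5p, miR-235-5p and miR-236-5p were 13.3, 13.3 and 6.44 CPM, between the means of the isoform lines. For miR-235-5p the wild-type mean lay nearer the ME mean of 15.2 CPM than the SH mean of 8.62 CPM.

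The log2 differences of these 3 arms were 0.96 for miR-74-5p (SE 0.26, edgeR adjusted p = 0.0201), 0.82 for miR-235-5p (SE 0.24, edgeR adjusted p = 0.0271) and 0.94 for miR-236-5p (SE 0.25, edgeR adjusted p = 0.0197). Each call depended on single libraries, though the sign did not change in any fit that left out 1 library. The miR-74-5p call was lost without ME library 1 (0.94), ME library 3 (0.65), SH library 1 (0.98) or SH library 3 (0.86). The miR-235-5p call was lost without ME library 1 (0.76), ME library 3 (0.66), SH library 1 (0.62) or SH library 2 (0.74). For miR-236-5p the same 4 libraries ended the call, at 0.89, 0.81, 0.81 and 0.85.

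miR-54-5p, of the broadly expressed mir-51 family, was the most abundant called arm after miR-77-5p and had the smallest difference. It stood at 227, 250.4 and 310 CPM in the ME line and at 181, 195 and 159 CPM in the SH line. The log2 difference was 0.56 (SE 0.17, edgeR adjusted p = 0.0362). Without ME library 3 it was 0.30, without SH library 1 0.48 and without SH library 3 0.49, and the call was lost each time. The miR-54 ratio was at 0.42 and not called (edgeR adjusted p = 0.381). The wild-type mean of miR-54-5p was 274 CPM, near the ME mean of 262 CPM. Its tm1563 and SH means were 194 and 178 CPM. Its family neighbours miR-55-5p and miR-56-5p were not called: their log2 differences were 0.62 (edgeR adjusted p = 0.198) and 1.16 (edgeR adjusted p = 0.150).

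Members with separate ME and SH libraries that did not pass included miR-250-5p at 0.82, miR-37-5p at -0.79, miR-8186-5p at 0.72 and miR-55-5p at 0.62 on the log2 scale, where 30.4% of all features had separate libraries. The number called depended on the scaling: it was 1 in place of 7 with the size factors of DESeq2 used in edgeR, and 1 with plain library totals. Over all 250 features the calls were 24 and 18 in place of 36. With DESeq2's size factors edgeR called 3 members in the ME line and 2 in tm1563 against wild type, so the order of the comparisons by calls turned. Over all features it called 37 and 29 there. In the ME against the SH line those size factors gave all features a median of -0.03 in place of 0.13. The tested members had a median of 0.36 in place of 0.52. Scaling moved members and other features together, so the gap between the medians hardly changed with it. The members were chosen with higher minor arms in the ME line known, so that gap is no support for a difference.

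**Figure D2:**
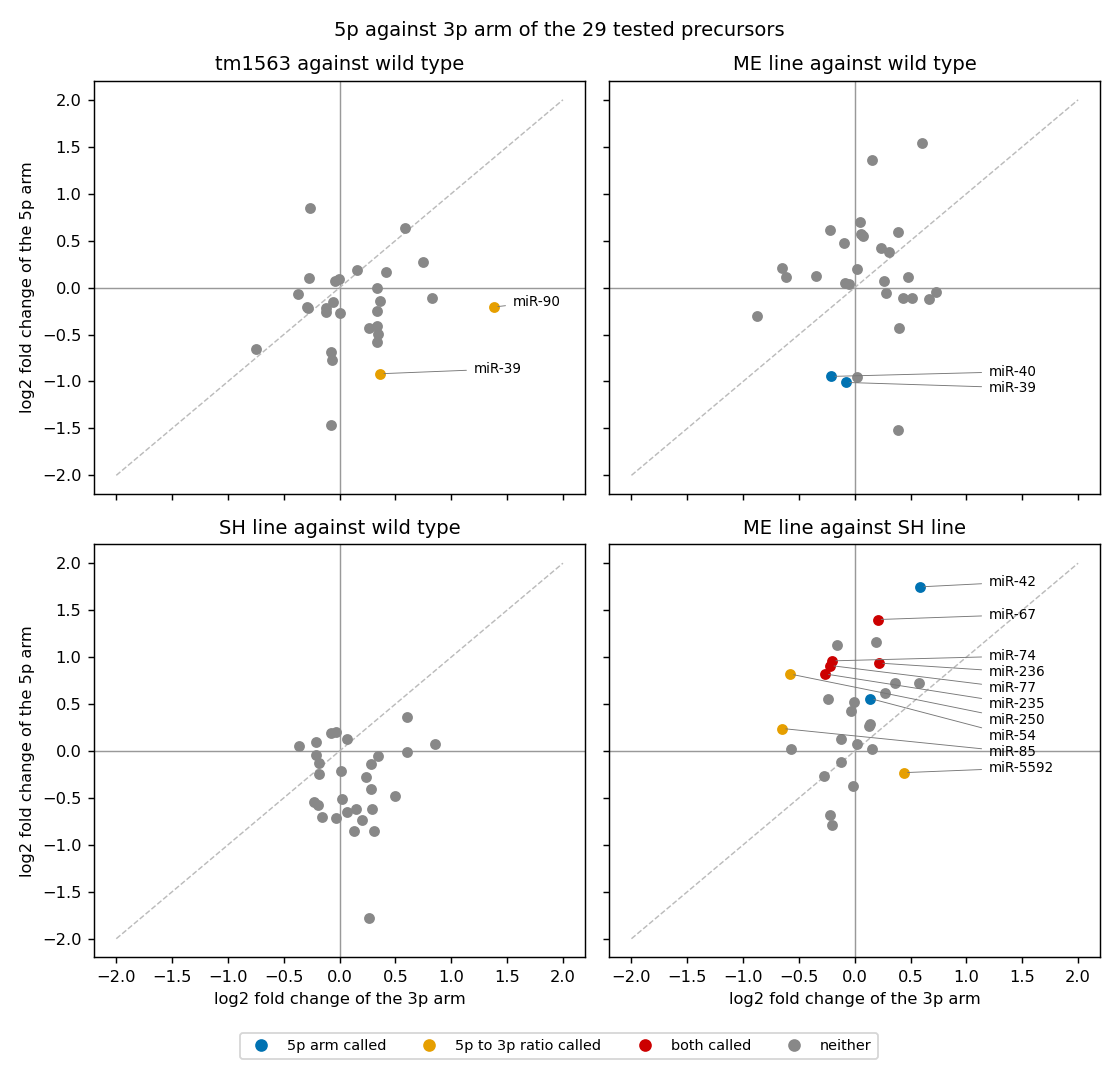
Log2 fold change of the 5p arm (vertical) against that of its 3p arm (horizontal) for the 29 tested precursors in 4 comparisons, with arms on the dashed line changed equally. In the ME line against the SH line most points lie above the line and the called 5p arms sit between 0.56 and 1.75, while 3p arms stay between -0.65 and 0.59.

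Strand ratios of some members also differed between the isoform lines, at a share near that of all precursors fitted. The 5p to 3p ratio rose in the ME line relative to the SH line for miR-250, miR-235, miR-67, miR-77, miR-74, miR-85 and miR-236, and fell for miR-5592. These are 8 of the 29 tested members, while 23.8% of the 80 precursors fitted were called, 20.0% as higher and 3.75% as lower. The share of members called is thus near that background. The left-out precursors with a minor 5p arm had 8 of 19 called higher, and the precursors with a minor 3p arm 1 of 32 called higher and 2 lower.

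**Figure D3:**
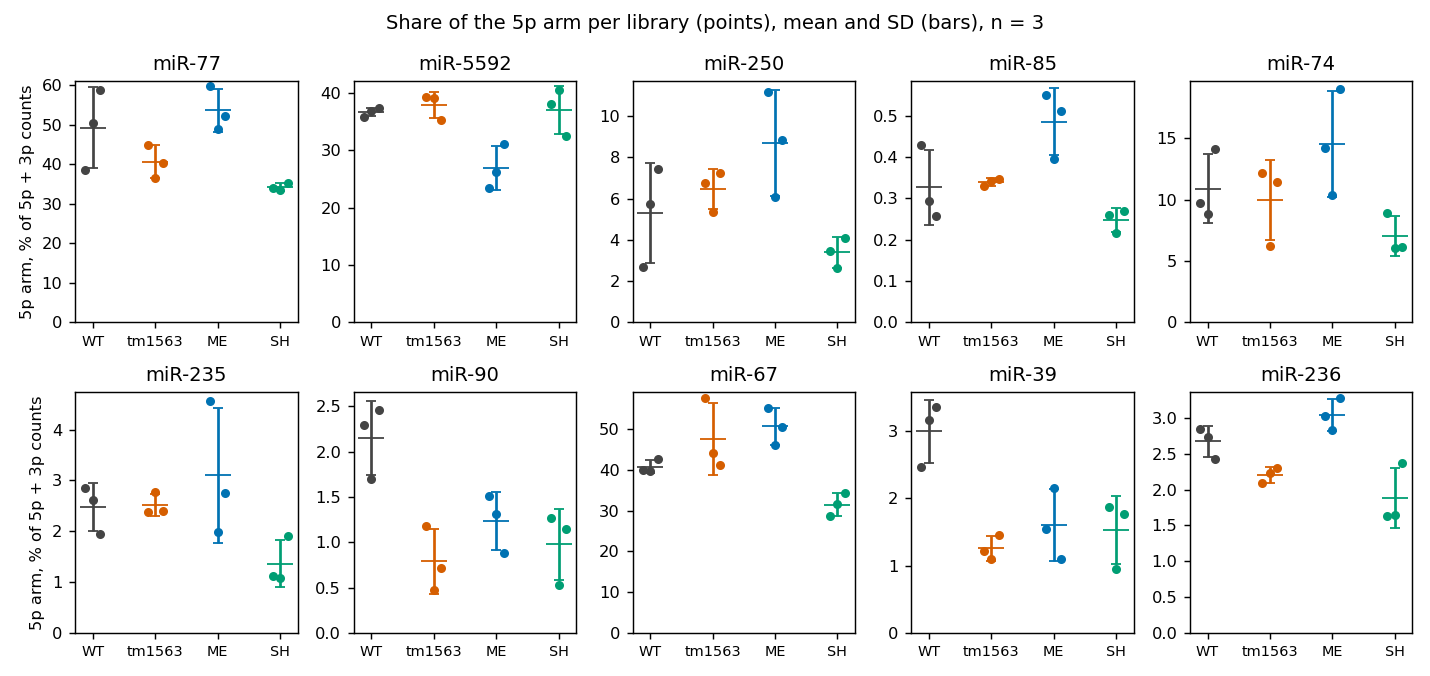
The 5p arm's percentage of a precursor's counts in each library (points) with the mean and SD of 3 libraries, for the 10 members whose ratio was called in some comparison, each on its own axis from 0. The 3 SH libraries of miR-77 sit between 33.4% and 35.3% and all 3 ME libraries lie above them, and miR-39 and miR-90 are highest in wild type.

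For miR-77 the 5p share was 59.7%, 48.9% and 52.2% in the ME line and 34.0%, 33.4% and 35.3% in the SH line. Wild type spanned 38.4% to 58.9%, which overlaps the ME libraries, and tm1563 spanned 36.5% to 44.8%, between the isoform lines. The log2 ratio differed by 1.15 (SE 0.30, edgeR adjusted p = 0.0138). For miR-67 the share was 55.2%, 46.2% and 50.6% in the ME line against 28.6%, 31.5% and 34.4% in the SH line, a log2 difference in the ratio of 1.17 (SE 0.32, edgeR adjusted p = 0.0159). In both precursors the 5p strand was the more abundant in ME libraries 1 and 3 and in no SH library.

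The largest log2 difference was that of miR-250, a neighbour of mir-61 on chromosome V. Its 5p share was 11.2%, 6.06% and 8.85% in the ME line against 3.48%, 2.61% and 4.10% in the SH line, a log2 difference of 1.42 (SE 0.37, edgeR adjusted p = 0.0138). Neither of its arms passed alone: the 5p arm was at 0.82 (edgeR adjusted p = 0.0837) and the 3p arm at -0.58 (edgeR adjusted p = 0.189). miR-85 was also called by its ratio alone, at a far lower share, 0.550%, 0.394% and 0.511% against 0.259%, 0.216% and 0.270%. Its log2 ratio differed by 0.95 (SE 0.27, edgeR adjusted p = 0.0174), with the 3p arm at -0.65 (edgeR adjusted p = 0.189). miR-85-5p was at 0.24 (edgeR adjusted p = 0.708) with overlapping libraries, so the ratio differed mostly through the 3p arm.

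The 5p arms of miR-235, miR-74 and miR-236 were also higher in the ME than in the SH line. Their ratios differed by 1.17, 1.15 and 0.72 (edgeR adjusted p = 0.0174, 0.0236 and 0.0478). miR-5592 went the other way: its 5p share was 23.5%, 26.2% and 31.0% in the ME line and 38.1%, 40.6% and 32.5% in the SH line, a log2 difference of -0.68 (SE 0.24, edgeR adjusted p = 0.0478). Its 2 annotated copies lie on opposite strands of 1 site at chrX:13759245-13759308 and chrX:13759247-13759310. A 5p strand of the first copy then lies opposite the 3p end of the second, and which copy gave a read was not tested.

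None of the 8 ratio calls was kept without ME library 1, without SH library 1 or without SH library 2. The signs were kept, and the log2 differences without ME library 1 were 1.196 for miR-250, 1.15 for miR-74, 1.02 for miR-67, 0.97 for miR-77, 0.85 for miR-85, 0.83 for miR-235, 0.72 for miR-236 and -0.56 for miR-5592. Without SH library 1 or 2 they lay between 0.62 and 1.45 for the 7 that rose, and for miR-5592 at -0.65 and -0.57. The miR-236 call was also lost without ME library 2 (0.77) or 3 (0.66), that of miR-5592 without ME library 2 (-0.66), and that of miR-74 without ME library 3 (0.89) or SH library 3 (1.05).

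**Figure D4:**
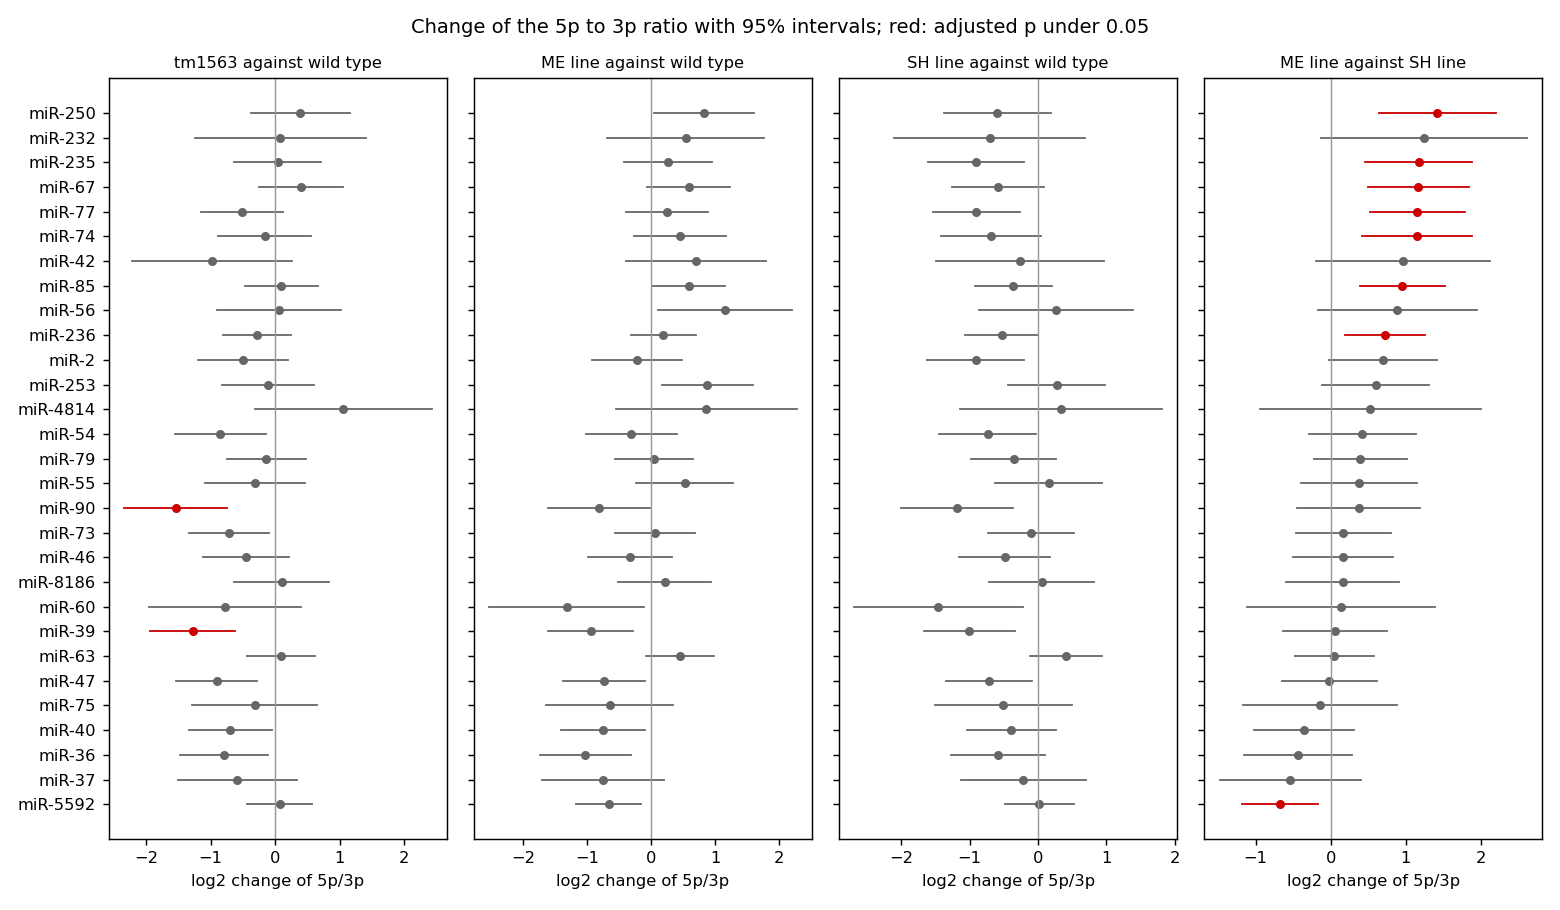
Log2 change of the 5p to 3p ratio (points) with 95% intervals for the 29 tested members in 4 comparisons, ordered by the ME against SH value, with an adjusted p under 0.05 in red. Of the called ratios, 7 lie above 0 and 1 below in the right panel, and miR-39 and miR-90 lie below 0 in the left panel.

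Against wild type the ME line had lower 5p arms of miR-39 and miR-40, both from the mir-35 cluster, whose 3p arms are essential in the embryo and abundant in the germ line. These were 2 of the 29 tested members, both lower, where 13.6% of all features were called and 6% as lower. miR-40-5p stood at 18.4, 25.2 and 24.1 CPM in wild type and at 11.1, 14.7 and 9.29 CPM in the ME line. miR-39-5p stood at 10.2, 11.5 and 13.1 CPM in wild type and at 6.08, 7.05 and 4.05 CPM in the ME line. In neither did the groups overlap, as in 34.0% of all features.

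The log2 fold changes were -0.95 for miR-40-5p (SE 0.26, edgeR adjusted p = 0.0269) and -1.01 for miR-39-5p (SE 0.31, edgeR adjusted p = 0.0415). Their 3p arms were at -0.21 (edgeR adjusted p = 0.626) and -0.08 (edgeR adjusted p = 0.816). The miR-40-5p call was lost without wild-type library 2 (-0.86) or 3 (-0.89) and without ME library 1 (-0.94) or 3 (-0.91). The same 4 libraries ended the miR-39-5p call, at -1.02, -0.90, -1.09 and -0.93. The summed 3p arms of the mir-35 family were used as embryo and germ line markers. They stood at 1471 ± 111 CPM in wild type and 1694 ± 234 CPM in the ME line, with overlapping libraries. The sum includes the 3p arms of miR-39 and miR-40 given above. Log2 fold changes of the single arms ran from -0.21 for miR-40-3p to 0.60 for miR-42-3p. All 8 of these marker arms were detected, and their part in the result was not tested.

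Among members whose ME and wild-type libraries did not overlap without a call, miR-36-5p was at -0.95, miR-8186-5p at 0.59, miR-55-5p at 0.58 and miR-74-5p at 0.55 on the log2 scale. miR-36-5p stood at 10.01, 12.3 and 10.7 CPM in wild type and at 5.71, 7.67 and 3.60 CPM in the ME line (edgeR adjusted p = 0.0583). No member's 5p to 3p ratio was called, where 8.75% of the precursors fitted were called. At an unadjusted p under 0.05 in edgeR were 11 of 29 members and 26 of the 80 precursors fitted. limma on the log2 ratio called 0 as well. The 3p arm of miR-90 rose by 0.66 (SE 0.20, edgeR adjusted p = 0.0415), the only partner arm called in this comparison.

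**Figure D5:**
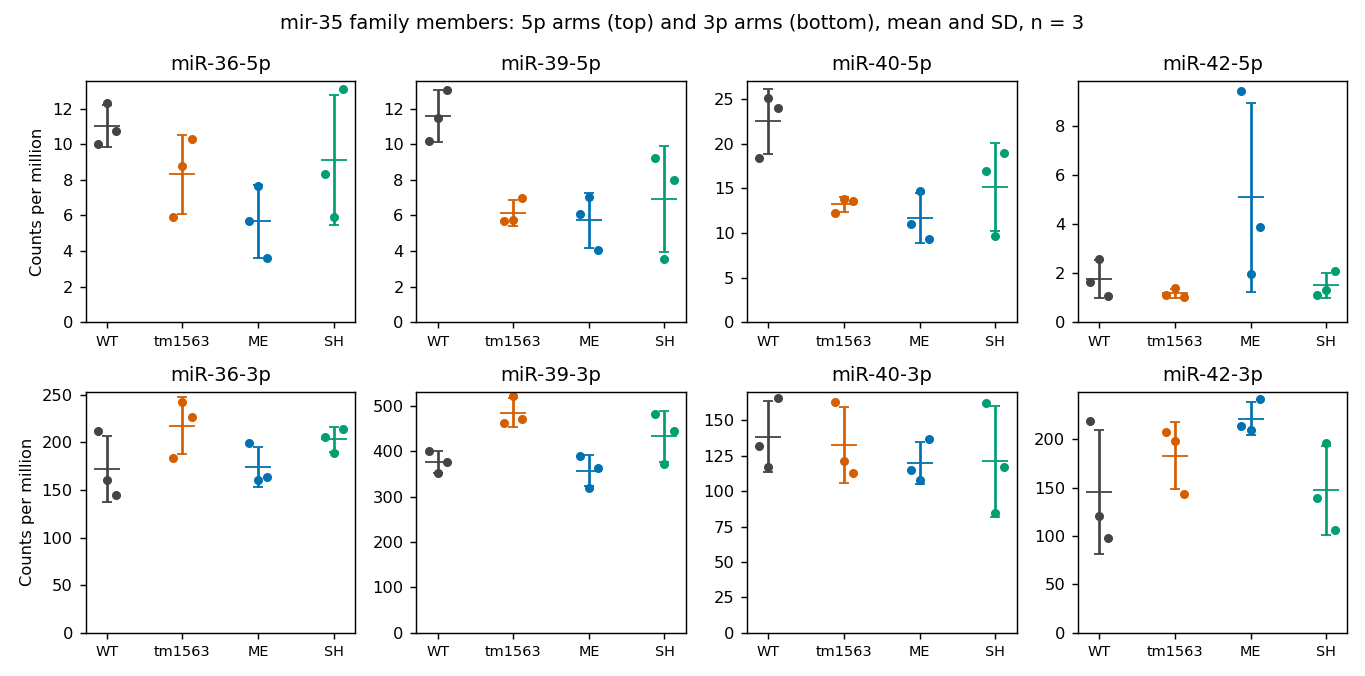
Level in CPM of the 5p arm (top) and 3p arm (bottom) of miR-36, miR-39, miR-40 and miR-42 in each library (points) with mean and SD of 3 libraries, each panel on its own axis from 0. The wild-type 5p libraries of miR-39 and miR-40 lie above all ME and tm1563 libraries, and ME library 1 alone reaches 9.44 CPM of miR-42-5p.

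In tm1563 against wild type no member 5p arm was called, while 2 strand ratios were. Of the 29 tested 5p arms edgeR called 0, with 4 at an unadjusted p under 0.05, and DESeq2 called 4, all lower. Over all features edgeR called 10%, and DESeq2 called 9.17% as lower. At an unadjusted p under 0.05 in edgeR were 64 of the 250 features tested. The members closest to a call were miR-40-5p at -0.78 (edgeR adjusted p = 0.0649), miR-39-5p at -0.92 (edgeR adjusted p = 0.0649), miR-54-5p at -0.50 (edgeR adjusted p = 0.0725) and miR-77-5p at -0.68 (edgeR adjusted p = 0.0725). DESeq2 called these 4. Without wild-type library 1 edgeR called 1 member 5p arm, and with only the libraries of tm1563 and wild type in the fit it called 4. Over all features it called 16 and 41 in these fits.

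miR-40-5p stood at 12.2, 13.8 and 13.6 CPM in tm1563 and miR-39-5p at 5.70, 5.75 and 6.97 CPM, all below the wild-type libraries given above. miR-54-5p stood at 185, 218 and 180 CPM in tm1563 and at 300.0, 246 and 276 CPM in wild type. miR-85-5p stood at 12.9, 17.004 and 21.9 CPM in tm1563 and at 32.7, 26.3 and 23.0 CPM in wild type, at -0.66 on the log2 scale. Its 3p arm was lower alike, at -0.75 (edgeR adjusted p = 0.149) with separate groups, and its ratio was at 0.09. The 3p arms of miR-40 and miR-54 were at -0.06 and 0.35. In the 5p arms of miR-40, miR-39, miR-54 and miR-85, and in miR-73-5p at -0.43, the groups did not overlap, as in 34.4% of all features.

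The 5p to 3p ratio fell for miR-39 and miR-90 in tm1563, 2 of 29, where 5% of the precursors fitted were called and 2.50% as lower. The 5p share of miR-39 was 2.47%, 3.16% and 3.35% in wild type and 1.22%, 1.09% and 1.46% in tm1563, a log2 change of the ratio of -1.28 (SE 0.31, edgeR adjusted p = 0.0166). Here the 3p arm was at 0.37 (edgeR adjusted p = 0.152). The summed 3p markers of the mir-35 family, which include miR-39-3p, stood at 1858 ± 159 CPM in tm1563, above wild type. Log2 fold changes of the single arms ran from -0.90 for miR-41-3p, near the detection floor, to 0.42 for miR-35-3p, none called. miR-40-3p was at -0.06. The part of these markers in the miR-39 ratio was not tested.

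miR-90, which shares its family with miR-50 and miR-62, differed through its 3p arm. miR-90-3p stood at 649, 604 and 556 CPM in wild type and at 1088, 1968 and 1674 CPM in tm1563, a log2 change of 1.39 (SE 0.21, edgeR adjusted p = 0.000633). miR-90-5p stood at 15.2, 10.4 and 14.1 CPM in wild type and at 13.03, 9.25 and 12.004 CPM in tm1563, which overlap. The 5p share therefore went from 2.30%, 1.70% and 2.46% to 1.18%, 0.468% and 0.712%, a log2 change of the ratio of -1.55 (SE 0.38, edgeR adjusted p = 0.0166). The precursor lies at chrIII:8873987-8874084 on the minus strand, in an intron of K01F9.2 on the same strand.

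The miR-39 ratio call was lost without wild-type library 2 (-1.24) or 3 (-1.19) and without tm1563 library 1 (-1.26), 2 (-1.19) or 3 (-1.40). That of miR-90 was lost without wild-type library 2 (-1.71) or 3 (-1.43) and without tm1563 library 2 (-1.23) or 3 (-1.52). The only other partner arm called in tm1563 was miR-56-3p, of the mir-51 family, which rose by 0.59 (SE 0.17, edgeR adjusted p = 0.0420). miR-56-5p was at 0.63 (edgeR adjusted p = 0.470), so its ratio did not pass.

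The SH line showed no called member against wild type, in 5p arms or in ratios. Of 29 tested 5p arms edgeR called 0, with 8 at an unadjusted p under 0.05, and DESeq2 called 2, both lower. Over all features edgeR called 2.00%, and DESeq2 called 3.60% as lower. At an unadjusted p under 0.05 in edgeR were 36 of the 250 features tested. miR-54-5p and miR-77-5p were closest, at -0.62 and -0.86 on the log2 scale, each with an edgeR adjusted p of 0.0662. The miR-54-5p libraries of the SH line all lay below those of wild type, while the highest SH library of miR-77-5p lay above wild-type library 1. Without wild-type library 1 edgeR called 1 member 5p arm, and 7 over all features.

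Other members with separate SH and wild-type libraries were miR-90-5p at -0.85, miR-39-5p at -0.74 and miR-236-5p at -0.51, none of them called. Over all features 17.2% had separate libraries in this comparison. miR-90-5p stood at 8.59, 4.13 and 9.15 CPM in the SH line, all below the lowest wild-type library at 10.4 CPM. For the 5p to 3p ratio edgeR called 0 of 29 and limma called 0, where edgeR called 6.25% of the precursors fitted. At an unadjusted p under 0.05 in edgeR were 8 of 29 members and 17 of the 80 precursors fitted. Without wild-type library 1, or without wild-type library 2, edgeR called 1. The ratios of miR-39, miR-90 and miR-77 were at -1.003, -1.19 and -0.90 (edgeR adjusted p = 0.0719, 0.0812 and 0.0876).

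Over the tested members the median log2 fold change of the 5p arm was -0.21 in tm1563, 0.11 in the ME line and -0.27 in the SH line against wild type, and 0.52 in the ME line against the SH line. All features had medians of 0.03, 0.07, -0.03 and 0.13 in the same order. For the members' 3p arms the medians were 0.27, 0.06, 0.07 and -0.01. Minor 3p arms, the 32 tested of 36 with at least 60 counts, had medians of -0.12, 0.06, -0.13 and 0.35. Since 6 members did not pass the filter, these medians describe the tested arms and support no statement about all 35.

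Counted over all 35 members with a pseudocount of 0.5, the median log2 ratio of 5p to 3p was -4.70 ± 0.47 (SD, n = 3) in wild type, -4.97 ± 0.20 in tm1563, -4.54 ± 0.28 in the ME line and -5.34 ± 0.47 in the SH line. The ME libraries stood at -4.38, -4.38 and -4.87 and the SH libraries at -5.08, -5.88 and -5.06, which do not overlap. With a pseudocount of 5 in place of 0.5 they did: ME library 3 was at -4.77, below SH libraries 1 (-4.52) and 3 (-4.74). Wild type spanned -5.08 to -4.17 and overlapped both lines. Read as summed counts the values were -3.59, -4.32, -3.70 and -4.43, a measure that miR-77 dominates.

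The authors' deposited tables of comparisons with wild type list some of these arms, all lower. Of all features listed there, 27 were lower and 24 higher for tm1563, 25 and 16 for the ME line, and 10 and 2 for the SH line. In the authors' deposited table for tm1563, 5 of the 51 listed features were member 5p arms: miR-54, miR-40, miR-39, miR-85 and miR-77. The authors' deposited table for the ME line listed 3 of 41, miR-40, miR-39 and miR-36, and that for the SH line 1 of 12, miR-54. For miR-39-5p the authors' deposited tables gave a log2 fold change of -0.92 in tm1563 and -0.98 in the ME line, and for miR-40-5p -0.81 and -0.94. The listed arms are a share of 14.3% of the 35 members in tm1563, 8.57% in the ME line and 2.86% in the SH line. Of all 471 features the authors' deposited tables list 10.8%, 8.70% and 2.55%, near the members' shares. That background includes 221 features too low to be tested here, while each member had at least 60 summed counts. The shares are therefore not like for like.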

How the data were processed

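The authors deposited read counts per mature miRNA arm, whole numbers with no normalization. The tools and build named in the submitters' processing notes are Bowtie, DESeq2 and WBcel235; versions, mismatches and the treatment of reads with several matches are not stated there, so near-identical arms (mir-35, mir-51, miR-46 and miR-47 members) may share reads. The authors' comparison tables hold a normalized signal per group, a log2 fold change and an adjusted p-value, per the file headers. The log2 ratios of the ME, SH and tm1563 count columns correlated with those tables at r = 0.99998, 0.999991 and 0.999966 over 41, 12 and 51 listed features. Of the count columns 0 were unmapped.

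Features passing edgeR's filterByExpr (minimum count 10, minimum total 15; 250 of 471) entered 1 quasi-likelihood fit of 12 libraries (edgeR 4.0.16, R 4.3.3, TMM, robust, 1 mean per genotype). Ratios were fitted over both arms of 80 precursors with a term per library and arm by genotype. P-values were adjusted by Benjamini-Hochberg over each comparison with a threshold of 0.05; intervals are at 95%, and the SE is the log2 fold change over the root of F. Alternatives used DESeq2 1.42.0, limma 3.58.1, other scalings, no filter, a block and left-out libraries. Scripts were tested on simulated data.

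Named arms were those called, the 6 highest and 4 lowest by level, the 4 highest and lowest by share, up to 4 uncalled with separate groups per comparison, and threshold neighbours. The members and lists were chosen with earlier results of these data known, among them that minor arms as a group were higher in the ME than in the SH line, so that pattern is no independent support. No mature sequence is printed.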

Additional observations from a re-analysis of the deposited data

How the results depend on the processing

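No called member changed sign under any alternative tried. Of the 19 member calls none was kept in every fit that left out 1 library; each was kept in 1 to 4 of 6. Over the single calls and all alternatives, 119 values kept their side of the threshold and 108 lost it. Depth limits the 6 untested members. With DESeq2's size factors in edgeR (RLE) the member 5p calls were 2 for tm1563 against wild type and 1 for the ME against the SH line. Over all features these counts were 29 and 24. With library totals the member 5p calls were 0 for the ME line against wild type and 1 for the ME against the SH line. Over all features these were 28 and 18. RLE moved the median of all features in the ME line against wild type from 0.07 to -0.04, and totals moved it from 0.03 to 0.15 in tm1563 and from -0.03 to 0.08 in the SH line. DESeq2 called 4 members in tm1563, 5 in the ME line (1 higher, 4 lower) and 2 in the SH line against wild type. Over all features it called 38, 52 and 10. With no filter the member calls were 3, 4 and 1 in the same order, and 4 for the ME against the SH line. Over all features they were 26, 38, 6 and 25. With only the compared groups in the fit the member calls were 4 for tm1563 and 4 for the ME against the SH line. Over all features they were 41 and 24.

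Leaving out each library in turn gave 0 to 1 member 5p calls for tm1563, 0 to 4 for the ME line and 0 to 1 for the SH line against wild type. For the ME against the SH line it gave 0 to 7. Over all features the ranges were 5 to 16, 10 to 39, 2 to 8 and 12 to 36. For the members' ratios the ranges were 0 to 2, 0 to 2, 0 to 1 and 0 to 8. With the first libraries of both wild type and the ME line left out, the member 5p calls were 3 for tm1563, 0 for the ME line and 2 for the SH line. Over all features these counts were 33, 14 and 9. The members' ratio calls were then 1 for the SH line against wild type and 3 for the ME against the SH line. The cause was not tested.

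The deviations of same-numbered libraries from their group means correlated at -0.571 to 0.233. Differently numbered libraries were not compared, so this cannot settle whether the numbers pair the libraries. With the replicate number as a block the member 5p calls were 0 for tm1563, 1 for the ME line, 0 for the SH line and 5 for the ME against the SH line. Over all features they were 16, 25, 7 and 35. For the members' ratios limma with the block called 1 for the SH line against wild type and 6 for the ME against the SH line. The median log2 ratio was -4.73 in tm1563 and -4.81 in the SH line with a pseudocount of 5. From summed counts it was -3.59 in wild type, -4.32 in tm1563, -3.70 in the ME line and -4.43 in the SH line.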
